A study of Mus musculus with 4 samples.

Results

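The cytosolic and mitochondrial chaperones are 36 genes, taken by symbol from the deposited table of read counts, which holds 27179 genes; all 36 were found there. RNA-seq was done on 4 libraries of mouse plasmacytoid dendritic cells (pDCs), which detect nucleic acids through endosomal receptors such as TLR7 and release type I interferon. All 4 came from C57BL/6 bone marrow precursors grown for 8 days with Flt3 ligand and sorted by SiglecH and CD11b, and all had received the TLR7 ligand imiquimod (1 µg/ml, 24 h). The groups were 2 libraries of BFP-positive cells and 2 libraries of BFP-negative cells, where the blue fluorescent protein BFP marks cells that express the chemokine gene Cxcl10. The labels give neither the side of the CD11b gate nor the place of the BFP gate, and the text of the series and the sample labels differ on whether the BFP-negative cells were CXCL10-negative, so the groups are named here by BFP only. No unstimulated library was analysed here, and the labels do not say whether the libraries of a group came from separate animals or cultures, so p-values measure the spread between these libraries, which may be technical.

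Molecular chaperones help other proteins fold, assemble and cross membranes. The Hsp70 proteins bind unfolded stretches with the help of J-domain proteins, which deliver clients, and nucleotide exchange factors such as Hsp110 and Bag proteins, which release them; Hsp90 and its co-chaperones then act on near-folded clients such as kinases and steroid receptors. The chaperonin CCT folds actin and tubulin in the cytosol, and the chaperonin made of Hspd1 and Hspe1 folds proteins in mitochondria. Heat shock factor Hsf1 binds repeats of the letters NGAAN and switches on many of these genes in stressed cells.

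The libraries held 11868254 to 12570117 counts, so that 1 count was worth 0.0789 to 0.0858 CPM (counts scaled to a common library size, with TMM factors of 0.973 to 1.04). Cxcl10 had 149 and 154 counts in BFP-positive libraries and 3 and 19 counts in BFP-negative libraries, which checks the labels. All 12 pDC markers had counts in every library. In BFP-positive cells 2 of them rose and 3 fell (edgeR, adjusted p under 0.05), beside 7.60% higher and 3.51% lower among all tested genes. Siglech, which rose, was close to the threshold (adjusted p = 0.0485 in edgeR), and in limma 3 of the markers were lower and 0 higher. Siglech was at 803 ± 25.0 CPM in BFP-positive and 613 ± 2.69 CPM in BFP-negative cells, and Bst2 at 1706 ± 48.6 CPM in BFP-positive and 1717 ± 212 CPM in BFP-negative cells (SD, n = 2 each). The log2 fold change was 0.85 for Runx2, the other marker that rose, and -0.89, -0.99 and -0.55 for Ccr9, Cox6a2 and Ly6d, which fell. Other marker lists moved with the groups. Of the 16 tested markers of conventional dendritic cells, 7 were higher and 1 lower, with summed levels of 1402 and 1491 CPM in BFP-positive libraries and 922 and 949 CPM in BFP-negative libraries. Of 9 tested monocyte and macrophage markers, 4 were higher and 2 lower, with sums of 1206 and 1370 CPM in BFP-positive libraries and 609.9 and 732 CPM in BFP-negative libraries, while C1qa and Mertk had no count in any library. Csf1r had 265 and 398 counts in BFP-positive and 3 and 0 counts in BFP-negative libraries, and Cd14 had 1158 and 1165 counts in BFP-positive and 122 and 131 counts in BFP-negative libraries. The lower ones were Adgre1, with 78 and 124 counts in BFP-positive and 309 and 450 counts in BFP-negative libraries, and Apoe, with 17 and 14 counts in BFP-positive and 133 and 216 counts in BFP-negative libraries. Of 4 tested B cell markers, 2 were lower, with sums of 94.7 and 99.6 CPM in BFP-positive libraries and 121 and 123 CPM in BFP-negative libraries. The T and NK cell list held Cd3g and Eomes at 0 counts in every library, and its sums of 276 and 253 CPM in BFP-positive against 483 and 478 CPM in BFP-negative libraries were mostly Cd8b1, which fell. Granulocyte markers summed to 19.9 and 33.6 CPM in BFP-positive and 11.3 and 17.1 CPM in BFP-negative libraries, with Elane at 0 counts throughout. Of 8 tested immediate early genes, which also answer to cell handling, 3 were higher, with sums of 563 and 562 CPM in BFP-positive and 252 and 293 CPM in BFP-negative libraries. The part of these cell types and of handling in the chaperone results was not tested, and in bulk RNA fewer cells of a type and less RNA per cell cannot be told apart.

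Chaperone transcripts were lower in BFP-positive cells wherever a difference passed the test. Of the 36 genes, 35 passed the filter on low counts and 7 of these fell, which are Hsp90ab1, Fkbp4, Fkbp5, Hspa4, Cct5, Hspd1 and Hspa9. This is 20.0% of the tested members, beside 3.51% lower among all 11706 tested genes (edgeR, quasi-likelihood test, adjusted p under 0.05 by Benjamini-Hochberg over the whole table). No member rose, beside 7.60% of all tested genes; none was higher even at an unadjusted p under 0.05 (beside 14.0% of all tested genes), in DESeq2 or in limma. At an unadjusted p under 0.05, 18 members were lower, beside 10.6% of all tested genes. Several calls were lost when a library was left out, as given by gene below. Without BFP-positive replicate 1 the median log2 fold change of the tested members was -0.30, beside -0.02 for all tested genes. Without BFP-negative replicate 1 it was -0.27, beside 0.02. The fitted log2 fold change was below 0 for 28 of the 35 members, or 80.0%, beside 51.8% of all tested genes. Both BFP-positive libraries lay below both BFP-negative libraries for 24 of the 35 members, or 68.6%, beside 27.1% of all tested genes, and above them for 4 members, beside 27.1%. The median log2 fold change of the tested members was -0.33, beside -0.02 for all tested genes. Reads of all 36 genes together made up 0.674% and 0.659% of the counts in BFP-positive libraries and 0.936% and 0.864% in BFP-negative libraries. The titles share a code by replicate number that the labels do not explain, so whether the libraries are paired is not known. With the replicate number as a block in edgeR, 13 members were lower, beside 6.49% of all tested genes, and none higher, beside 9.74%. The members added by the block were Hspe1, Ahsa1, St13, Dnaja3, Cct3 and Cct7.

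**Figure D1:**
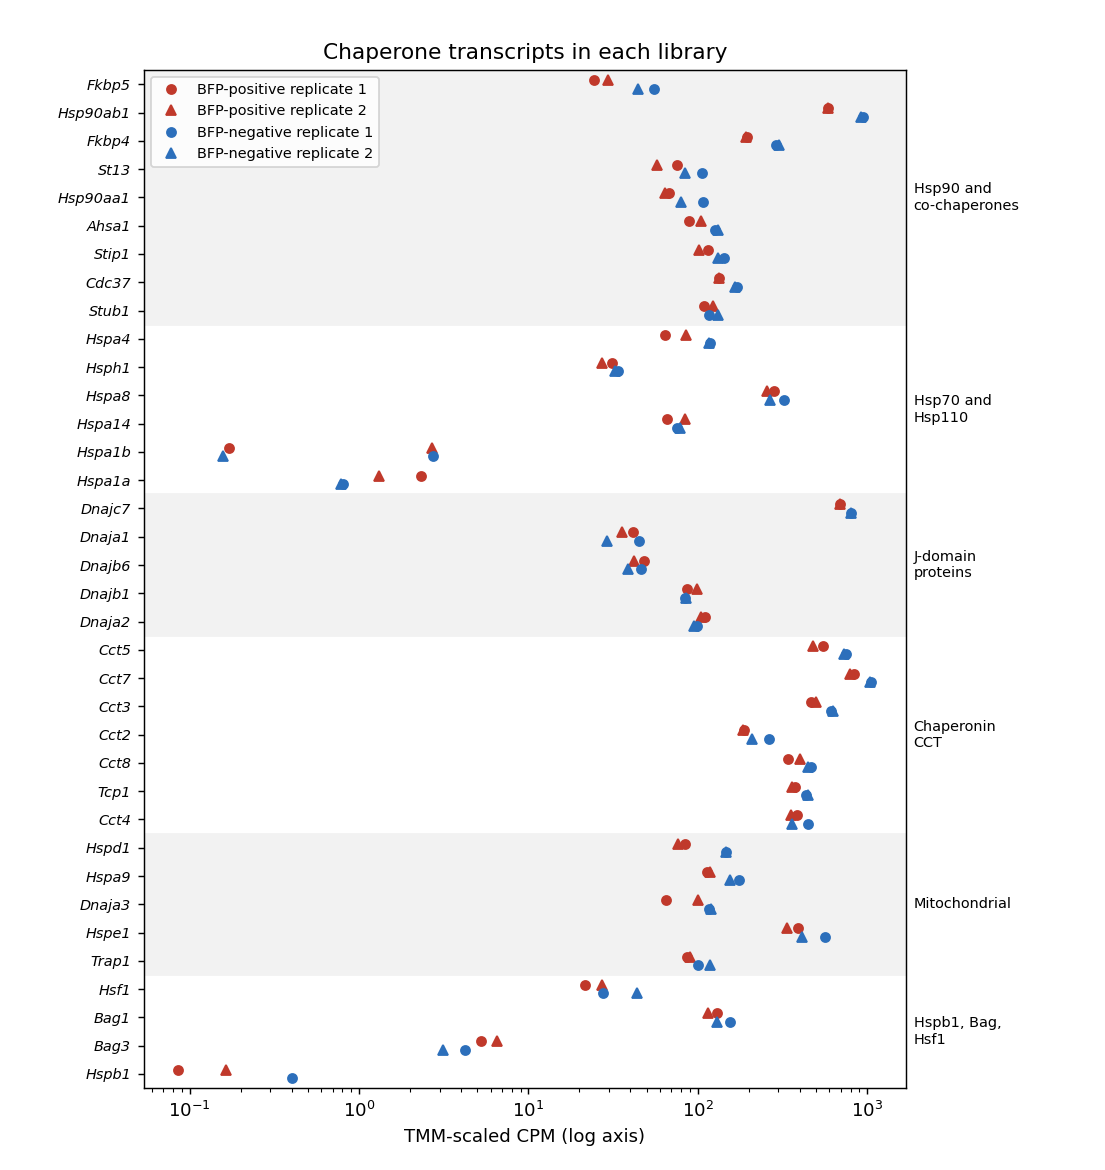
Level of each of the 36 chaperone genes in TMM-scaled CPM (log axis) in BFP-positive (red) and BFP-negative (blue) libraries, with circles for replicate 1 and triangles for replicate 2, grouped by role. Each point is 1 library, and a library at 0 counts has no point (Hspb1 in BFP-negative replicate 2). The red points lie left of the blue ones for 24 of the 35 tested members, or 68.6%, beside 27.1% of all tested genes. These members include all 5 mitochondrial chaperones.

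Hsp90 and its co-chaperones held 3 of the 7 members that fell, or 33.3% of this role, beside 3.51% of all tested genes. All 9 genes of this role had log2 fold changes below 0, beside 51.8% of all tested genes, with a median of -0.50. Hsp90ab1, the constitutive cytosolic Hsp90 (Entrez gene 15516, GRCm38 chromosome 17, 45567778 to 45573261), had 588 and 589 CPM in BFP-positive libraries, against 949.7 and 920.2 CPM in BFP-negative libraries. The groups lay far apart, and libraries of a group were close to each other. Its level fell 1.59-fold (log2 fold change -0.67, SE 0.11, adjusted p = 0.00362 in edgeR's quasi-likelihood test). Fkbp4, an immunophilin that joins Hsp90 to steroid receptors (Entrez gene 14228, chromosome 6, 128430103 to 128438656), had 196 and 192 CPM in BFP-positive libraries, against 290.2 and 302 CPM in BFP-negative libraries. Here too the groups did not overlap. Fkbp4 fell 1.53-fold (log2 fold change -0.61, SE 0.12, adjusted p = 0.0111 in edgeR), a call that was lost without BFP-positive replicate 1 or 2 (adjusted p = 0.0605 and 0.0802).

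Fkbp5, the related immunophilin that restrains steroid receptors and is itself induced by glucocorticoids (Entrez gene 14229, chromosome 17, 28398753 to 28486149), had 24.5 and 29.5 CPM in BFP-positive libraries, against 55.0 and 44.2 CPM in BFP-negative libraries. It had the most negative fitted value of the 35 members, in libraries that did not overlap between the groups. Fkbp5 fell 1.84-fold (log2 fold change -0.88, SE 0.22, adjusted p = 0.0290 in edgeR), a call lost without BFP-positive replicate 1 or BFP-negative replicate 1 (adjusted p = 0.136 and 0.132) and in limma on the deposited log2 RPKM (adjusted p = 0.0529). The other 6 genes of this role did not pass the test. St13, also called Hip, which keeps Hsp70 bound to its client, was at 66.5 ± 12.1 CPM in BFP-positive and 95.3 ± 15.1 CPM in BFP-negative cells (SD, n = 2 each). Hsp90aa1, the stress-inducible cytosolic Hsp90, had 68.1 and 64.5 CPM in BFP-positive libraries, against 106.9 and 80.0 CPM in BFP-negative libraries. Hsp90aa1 did not overlap between the groups, but its BFP-negative libraries differed from each other (log2 fold change -0.50, SE 0.18, adjusted p = 0.123 in edgeR); it passed without BFP-negative replicate 2 (adjusted p = 0.0449). Ahsa1, which stimulates the ATPase of Hsp90, Stip1, which bridges Hsp70 and Hsp90, and Cdc37, which brings kinases to Hsp90, had log2 fold changes of -0.42, -0.34 and -0.33. Stub1, the ubiquitin ligase CHIP that marks chaperone clients for destruction, was at 115.9 ± 10.01 CPM in BFP-positive and 124 ± 9.73 CPM in BFP-negative cells (SD, n = 2 each), with overlapping libraries.

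Among the 6 Hsp70 and Hsp110 genes, 1 (16.7%) fell, beside 3.51% of all tested genes. Hspa4, an Hsp110-type exchange factor of the cytosol (Entrez gene 15525, chromosome 11, 53259814 to 53300479), had 64.4 and 85.4 CPM in BFP-positive libraries, against 118.9 and 117 CPM in BFP-negative libraries. The BFP-negative libraries matched closely, and both BFP-positive libraries were below them but apart from each other. Hspa4 fell 1.58-fold (log2 fold change -0.66, SE 0.18, adjusted p = 0.0390 in edgeR). The call was lost without BFP-positive replicate 1, BFP-negative replicate 1 or BFP-negative replicate 2 (adjusted p = 0.271, 0.0683 and 0.0612) and in limma on the deposited log2 RPKM (adjusted p = 0.0651). Hspa8, the constitutive cytosolic Hsp70, had 284 and 257 CPM in BFP-positive libraries, against 324 and 268 CPM in BFP-negative libraries. Its groups overlapped, with a log2 fold change of -0.13, SE 0.14 (adjusted p = 0.635 in edgeR), which was 0.02 without BFP-negative replicate 1. Hsph1, the heat-inducible Hsp110, and Hspa14, an Hsp70 of ribosomes, had log2 fold changes of -0.19 and -0.04 and did not pass.

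The heat-inducible Hsp70 genes Hspa1a and Hspa1b were near the floor of the assay. Hspa1a had 27 and 16 counts in BFP-positive libraries and 10 and 10 counts in BFP-negative libraries. Hspa1b had 2 and 33 counts in BFP-positive libraries and 34 and 2 counts in BFP-negative libraries. For Hspa1b, then, 1 library of each group was high and the other low, and neither gene passed. The log2 fold change was 1.18 for Hspa1a (SE 0.91, adjusted p = 0.486 in edgeR) and 0.00 for Hspa1b (SE 1.33, adjusted p = 0.9993). The fitted value of Hspa1b ran from -2.996 without BFP-positive replicate 2 to 3.12 without BFP-negative replicate 1. The open reading frames of these neighbours on chromosome 17, of 1926 and 1929 bases, were 99.6% identical where they align, so how their reads were divided between them is uncertain.

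**Figure D2:**
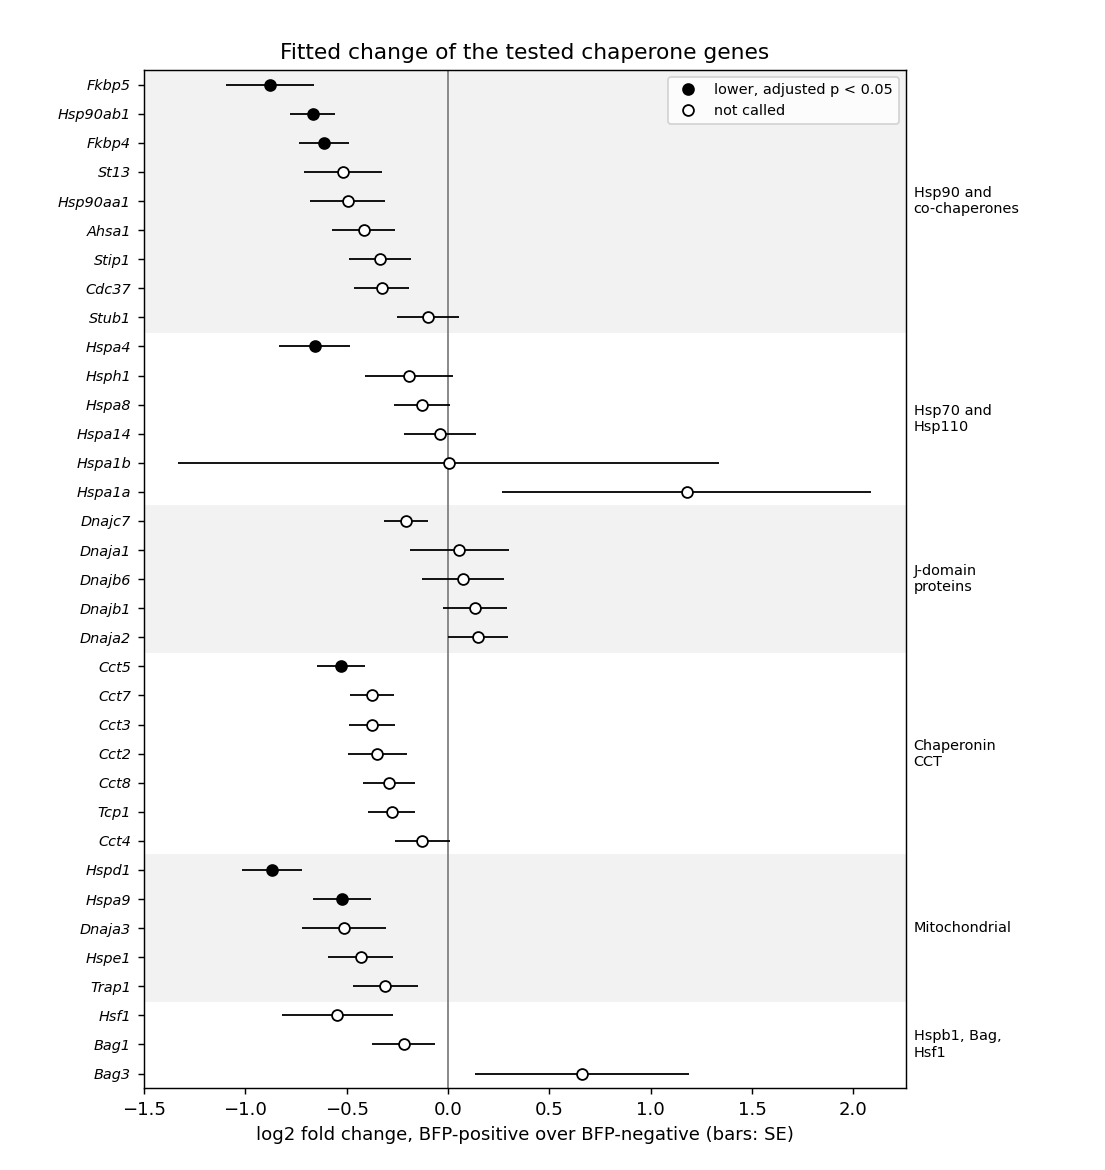
Fitted log2 fold change of the 35 tested chaperone genes, BFP-positive over BFP-negative, with bars of 1 SE; filled points passed edgeR's adjusted p threshold of 0.05. All 7 filled points lie left of 0, and every Hsp90, CCT and mitochondrial member has a value below 0, while the widest bars belong to Hspa1a and Hspa1b, which had few counts.

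The 5 J-domain proteins of cytosol and nucleus had values close to 0. None was called in edgeR, beside 3.51% lower and 7.60% higher among all tested genes. None had an unadjusted p under 0.05, beside 10.6% lower and 14.0% higher, and none was called in DESeq2 or limma. Among 5 genes, no call is near these shares. Their log2 fold changes ran from -0.21 to 0.15, with a median of 0.07. Dnajc7, which binds both Hsp70 and Hsp90 and was the most abundant of them, had 696 and 697 CPM in BFP-positive libraries, against 802 and 807 CPM in BFP-negative libraries. The groups were narrow and did not overlap, at a log2 fold change of -0.21, SE 0.11 (adjusted p = 0.278 in edgeR). Dnajb1, a heat-inducible partner of Hsp70, was at 93.0 ± 8.43 CPM in BFP-positive and 84.7 ± 1.07 CPM in BFP-negative cells (SD, n = 2 each). Dnaja2 was at 107.5 ± 3.89 CPM in BFP-positive and 97.01 ± 2.47 CPM in BFP-negative cells (SD, n = 2 each); Dnaja1 and Dnajb6, the last known to keep aggregating proteins soluble, had log2 fold changes of 0.06 and 0.07, with overlapping libraries. Dnajb6 and Dnaja1 were below 0 without BFP-positive replicate 1 or BFP-negative replicate 2, and Dnaja1 also by library totals alone. Whether this role differed from the Hsp90 genes was not tested.

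CCT is a double ring with 8 different subunits per ring, of which Tcp1, Cct2, Cct3, Cct4, Cct5, Cct7 and Cct8 are members here. All 7 had log2 fold changes below 0, beside 51.8% of all tested genes, from -0.53 to -0.13 with a median of -0.35. Of the 7, 1 (14.3%) fell, beside 3.51% of all tested genes. Cct5 (Entrez gene 12465, chromosome 15, 31590800 to 31601846) had 547 and 480.4 CPM in BFP-positive libraries, against 747 and 736 CPM in BFP-negative libraries. Both BFP-positive libraries were clearly below the BFP-negative ones. Cct5 fell 1.44-fold (log2 fold change -0.53, SE 0.12, adjusted p = 0.0178 in edgeR), but did not pass without BFP-positive replicate 2 (adjusted p = 0.190). Cct7, the member with the highest CPM, had 837 and 792 CPM in BFP-positive libraries, against 1063 and 1048 CPM in BFP-negative libraries. Its groups did not overlap, and it missed the threshold narrowly (log2 fold change -0.37, SE 0.11, adjusted p = 0.0518 in edgeR); it passed by library totals alone, in DESeq2 and in limma (adjusted p = 0.0255, 0.0102 and 0.0493). Cct3 had 465 and 500 CPM in BFP-positive libraries, against 616 and 634 CPM in BFP-negative libraries. Its log2 fold change was -0.37, SE 0.11, with adjusted p = 0.0651 in edgeR, 0.0309 by library totals alone and 0.0200 in DESeq2. Of the 7 subunits, 6 were lower at an unadjusted p under 0.05, beside 10.6% of all tested genes, and 6 had both BFP-positive libraries below both BFP-negative libraries, beside 27.1%. Cct4 was the exception in both, at 373 ± 22.2 CPM in BFP-positive and 407 ± 62.9 CPM in BFP-negative cells (SD, n = 2 each), and its fitted value turned to 0.05 without BFP-negative replicate 1. Cct6a, the remaining subunit, belongs to the wider list below and is named here after its value was seen. It was at 268 ± 14.7 CPM in BFP-positive and 350.4 ± 22.9 CPM in BFP-negative cells (SD, n = 2 each), with a log2 fold change of -0.39, SE 0.13 and adjusted p = 0.0780 in edgeR.

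All 5 mitochondrial chaperones were lower in both BFP-positive libraries than in both BFP-negative libraries, beside 27.1% of all tested genes. Of the 5, 2 (40%) passed the test, beside 3.51% lower among all tested genes. Hspd1, the chaperonin subunit Hsp60 (Entrez gene 15510, chromosome 1, 55077833 to 55088243), had 84.5 and 76.5 CPM in BFP-positive libraries, against 148 and 146 CPM in BFP-negative libraries. Each BFP-positive library was below 100 CPM and each BFP-negative library above it. Hspd1 fell 1.83-fold (log2 fold change -0.87, SE 0.15, adjusted p = 0.004785 in edgeR). Hspa9, the mitochondrial Hsp70 that pulls proteins through the import channel (Entrez gene 15526), had 113 and 118 CPM in BFP-positive libraries, against 175 and 156 CPM in BFP-negative libraries. The groups did not overlap, but the adjusted p was close to the threshold. Hspa9 fell 1.44-fold (log2 fold change -0.52, SE 0.14, adjusted p = 0.0437 in edgeR); it did not pass without BFP-positive replicate 1, BFP-positive replicate 2 or BFP-negative replicate 1 (adjusted p = 0.206, 0.164 and 0.164) or in limma (adjusted p = 0.0536).

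Hspe1, the Hsp10 lid of the Hspd1 ring (Entrez gene 15528, chromosome 1, 55088148 to 55091317), had 390.4 and 336 CPM in BFP-positive libraries, against 568 and 411 CPM in BFP-negative libraries. BFP-negative replicate 1 stood above the other 3 libraries, and the gene did not pass (log2 fold change -0.43, SE 0.16, adjusted p = 0.127 in edgeR), although it did without BFP-negative replicate 2 (log2 fold change -0.62, adjusted p = 0.0102). Dnaja3, the J-domain partner of Hspa9, had 64.6 and 101 CPM in BFP-positive libraries, against 117 and 119.7 CPM in BFP-negative libraries, so that BFP-positive replicate 1 was far below the rest. It did not pass with all libraries (adjusted p = 0.155 in edgeR) and passed without BFP-positive replicate 2 (adjusted p = 0.0257). Trap1, the mitochondrial Hsp90, was at 88.0 ± 2.45 CPM in BFP-positive and 108.9 ± 12.7 CPM in BFP-negative cells (SD, n = 2 each). Hspd1 and Hspe1 lie head to head and the annotated genes overlap at their starts, so in libraries that do not mark strand reads of the overlap cannot be told apart, and both genes have annotated pseudogenes that may share reads, as have Cct3, Tcp1, Dnaja1 and Dnajb6.

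Hsf1, the heat shock factor itself, had 21.6 and 27.2 CPM in BFP-positive libraries, against 27.6 and 43.8 CPM in BFP-negative libraries. The groups all but touched, and Hsf1 did not pass (log2 fold change -0.55, SE 0.27, adjusted p = 0.256 in edgeR). Bag3, an Hsp70 exchange factor that is strongly heat-inducible, was low, with 61 and 79 counts in BFP-positive and 53 and 40 counts in BFP-negative libraries, at 5.24 and 6.50 CPM against 4.26 and 3.15 CPM. Its BFP-positive libraries were above its BFP-negative ones, but Bag3 was not called (log2 fold change 0.66, SE 0.53, adjusted p = 0.503 in edgeR). Bag1, an Hsp70 exchange factor that also binds the proteasome, was at 123 ± 10.8 CPM in BFP-positive and 143 ± 17.4 CPM in BFP-negative cells (SD, n = 2 each). Hspb1, the small heat shock protein Hsp25, had 1 and 2 counts in BFP-positive libraries and 5 and 0 counts in BFP-negative libraries, too few to be tested.

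Heat shock elements, the letters that Hsf1 binds, were looked for in RefSeq promoter windows of GRCm38.p6, which run from 250 bases before to 50 bases after a transcript start and were given for 29 of the 36 members. The motifs were GAANNTTC and TTCNNGAA, each its own reverse complement, and 3-unit forms, in which a further GAA or TTC follows the shorter motif after NN; both 3-unit forms are each other's reverse complement and contain both shorter motifs. A shorter motif was in 14 of 29 members (48.3%), beside 17% of all 27025 genes with a window. A 3-unit form was in 4 of 29 members (13.8%), beside 0.662% of all genes; these members were Hspd1, Hspe1, Hsph1 and Dnajb6. The stretches of 30 bases below hold the matched letters in capitals, on the strand of each gene, for members that fell (Hspd1, Fkbp4, Cct5) and for members that did not pass (Dnajb6, Hsph1, Hspa1a, Hspa1b):
Hspd1: ggggccTTCCGGAAGGTTCTAGAAcggacc
Fkbp4: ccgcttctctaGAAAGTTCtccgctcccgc
Cct5: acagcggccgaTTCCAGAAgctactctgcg
Dnajb6: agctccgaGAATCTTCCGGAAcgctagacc
Hsph1: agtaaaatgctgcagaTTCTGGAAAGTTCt
Hspa1a: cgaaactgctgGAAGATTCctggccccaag
Hspa1b: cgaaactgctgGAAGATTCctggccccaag

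The Hspd1 stretch (chr1:55088053-55088082, minus strand) carries 18 matched bases, at -144 to -127 from a start of Hspd1. Read on the other strand it is also the element of Hspe1, since that start of Hspd1 and the start of Hspe1 lie 216 bases apart. The Fkbp4 stretch is at chr6:128438789-128438818 (minus), that of Cct5 at chr15:31601862-31601891 (minus), that of Dnajb6 at chr5:29735844-29735873 (plus) and that of Hsph1 at chr5:149636287-149636316 (minus), where the match lies just after the start. The stretches of Hspa1a (chr17:34972242-34972271, minus) and Hspa1b (chr17:34959324-34959353, minus) are the same, and their 250 bases before the start differ at 3 positions. Of the 14 members with a shorter motif, Hspb1 was not tested and 3 fell, beside 3.51% of all tested genes. The median log2 fold change of all tested members with a shorter motif was -0.19. Of the 15 members without one in the window, 2 fell, Hspa4 and Fkbp5, again beside 3.51%, and the median of these 15 was -0.31. Members that fell were found with and without the letters, but no window was given for Hsp90ab1 and Hspa9, which also fell. The match of letters is a description only.

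**Figure D3:**
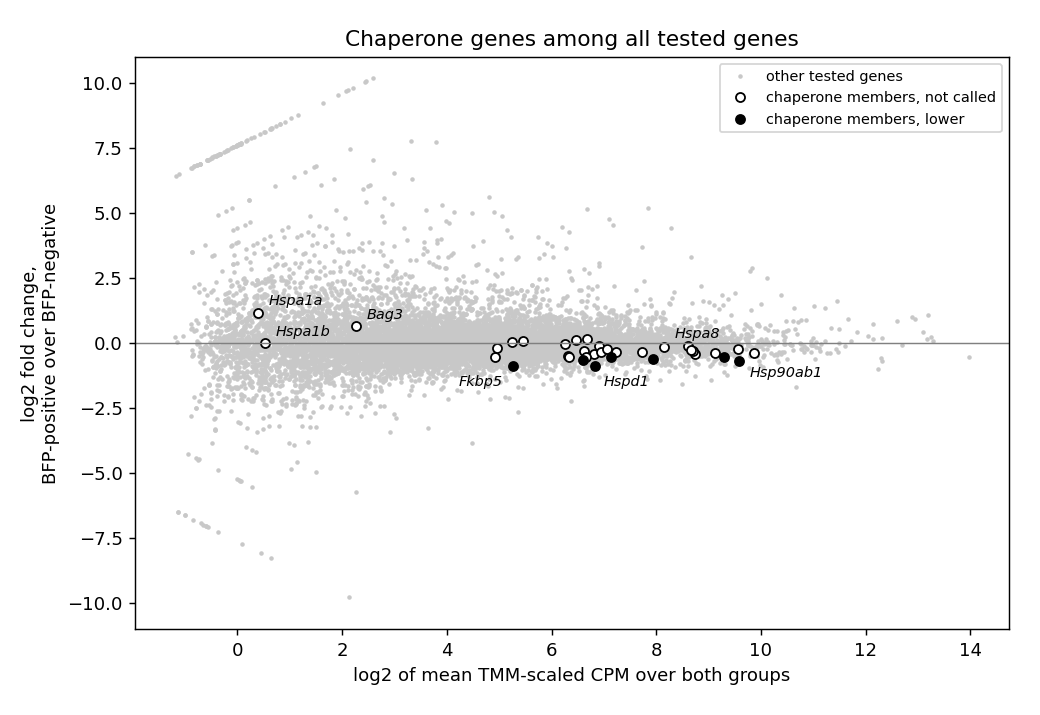
Fitted log2 fold change (BFP-positive over BFP-negative) against the log2 of mean TMM-scaled CPM for the 11706 tested genes (grey), with the chaperone members called lower (filled) and not called (open). Apart from Hspa1a, Hspa1b and Bag3 at the low end, the members sit among well expressed genes and mostly below 0, with a median of -0.33 beside -0.02 for all tested genes.

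Levels of different genes can be set side by side only per length, for which the authors' deposited log2 RPKM values were used. On that scale Hspe1 was the highest member, at a mean level of 8.85 in BFP-positive and 9.33 in BFP-negative cells, while its partner Hspd1 was at 5.07 in BFP-positive and 6.01 in BFP-negative cells. Cct7 came next in both groups, at 8.34 in BFP-positive and 8.78 in BFP-negative cells. Dnajc7 was at 8.20 in BFP-positive and 8.47 in BFP-negative cells and Cct5 at 8.15 in BFP-positive and 8.74 in BFP-negative cells, so their order differed between the groups. The subunits of CCT, which take equal places in the ring, were spread from 6.53 (Cct2) to 8.34 (Cct7) in BFP-positive cells and from 6.93 to 8.78 in BFP-negative cells. Hsp90ab1, at 7.84 in BFP-positive and 8.57 in BFP-negative cells, was well above Hsp90aa1, at 4.51 in BFP-positive and 5.05 in BFP-negative cells. Among the Hsp70 genes Hspa8 was at 6.97 in BFP-positive and 7.16 in BFP-negative cells, and Hspa1a at -0.70 in BFP-positive and -1.75 in BFP-negative cells.

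A wider list held 81 further gene symbols of chaperones, co-chaperones, heat shock factors and mitochondrial proteases, of which 80 were in the table and 68 were tested. Of these, 3 (4.41%) fell and none rose, beside 3.51% and 7.60% of all tested genes, so the share that fell was near that of all genes. The median log2 fold change of the 68 was -0.15. None was higher at an unadjusted p under 0.05 (beside 14.0% of all tested genes), in DESeq2 or in limma. Those that fell were Hspbp1, an exchange factor of Hsp70, at 102 ± 4.98 CPM in BFP-positive and 166 ± 15.2 CPM in BFP-negative cells, Dnajc21, a J-domain protein of ribosome assembly, at 8.82 ± 0.334 CPM in BFP-positive and 19.7 ± 0.486 CPM in BFP-negative cells, and Clpp, the mitochondrial protease, at 78.1 ± 7.06 CPM in BFP-positive and 116.5 ± 9.66 CPM in BFP-negative cells (SD, n = 2 each). Leaving out BFP-positive replicate 2 left 0 of the list lower, and leaving out any 1 of the other libraries left 2; leaving out BFP-negative replicate 2 gave 1 higher. By library totals alone 5 fell, beside 4.9% of all tested genes, and in DESeq2 5 fell, beside 3.42% of the 15139 genes fitted there. Several small heat shock protein genes, named after their values were seen, were silent or nearly so. Hspb2, Hspb3, Hspb7, Hspb8 and Hspb9 had no count in any library, which allows up to 0.2366 to 0.2575 CPM, by library, (3 counts, for counting error only), and Cryab had 0 and 3 counts in BFP-positive and none in BFP-negative libraries. Of 20 genes known as heat-inducible targets of Hsf1, 14 of them members, 16 were tested. Of these, 2 (12.5%) fell, Hspd1 and Fkbp4, beside 3.51% of all tested genes, and the median log2 fold change was -0.26.

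Other folding and degradation systems were counted in the same way. Of 20 tested genes of protein folding in the endoplasmic reticulum (ER), 10 (50%) fell and none rose, beside 3.51% and 7.60% of all tested genes. Their median log2 fold change was -0.62. Of those that fell, 4 were Pdia4, Dnajc3, Manf and Pdia3, with log2 fold changes of -0.80, -0.86, -0.80 and -0.69. None of these ER genes was higher at an unadjusted p under 0.05 (beside 14.0% of all tested genes), in DESeq2 or in limma. Of 31 proteasome subunits, none was called in edgeR, with a median of -0.05. At an unadjusted p under 0.05 there were 3 lower and 1 higher, beside 10.6% and 14.0% of all tested genes. In DESeq2 there were 1 lower and 1 higher, and in limma none. Whether the cytosolic and mitochondrial chaperones differed from either list was not tested.

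**Figure D4:**
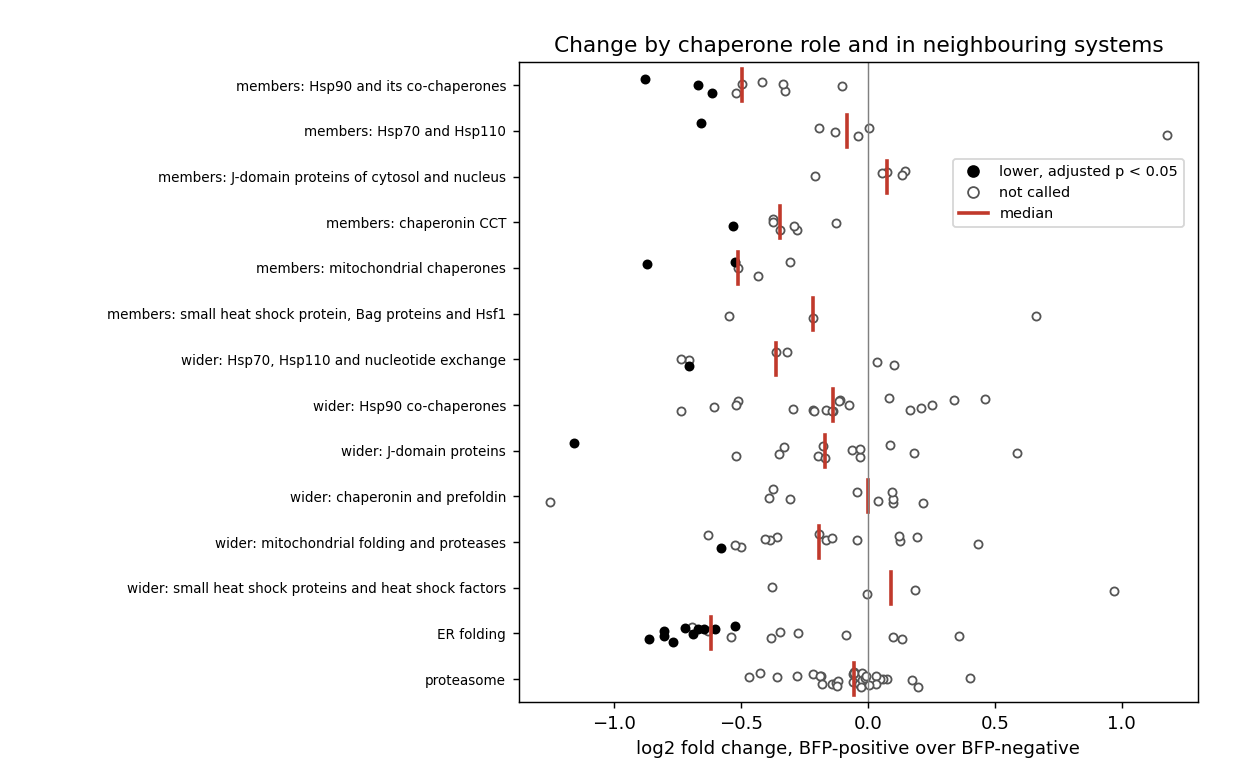
Log2 fold change (BFP-positive over BFP-negative) of each tested gene, by role of the chaperone members, in the wider chaperone lists, and in the ER folding and proteasome lists; filled points were called lower by edgeR at an adjusted p under 0.05 and red bars are medians. Medians are -0.50 for Hsp90 and its co-chaperones, -0.51 for mitochondrial chaperones and 0.07 for J-domain proteins, beside -0.62 for ER folding and -0.05 for the proteasome.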

How the data were processed

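RNeasy-purified RNA went into SMART-Seq libraries, per the labels' protocols; this PCR-based kit marks neither strand nor single molecules, so floors cover counting error only. Subread, featureCounts, limma, GRCm38 and mm10 stand in the submitters' processing notes; versions, strand setting and the treatment of reads with several matches are not given in the sources used here. The authors deposited raw counts per gene and, per library, log2 RPKM values (log2 of reads scaled by gene length and library size). Counts went into edgeR 4.0.16 (R 4.3.3) with filterByExpr (minimum count 10, minimum total 15), which left 11706 of 27179 genes, TMM scaling, group as the only term and 2 residual degrees of freedom; SE is the log2 fold change divided by the square root of F. Replicates were separate libraries (chi-square per degree of freedom 14.9 in BFP-positive and 18.9 in BFP-negative cells). Alternatives were other scalings, no filter, DESeq2 1.42.0, limma 3.58.1 on log2 RPKM, a block and leaving out each library. Positions and promoters are RefSeq's for GRCm38.p6, which matched all 36 members by Entrez identifier; reading frames are from GENCODE transcripts. Members, lists and the rule for named genes (every member past the threshold, Hsf1, Hspa1a, Hspa1b, Hspb1, Bag3 and the 5 members of highest CPM in full, at most 4 called genes of other lists) were chosen with earlier results of these data known. The values of 1 marker gene are not reported here.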

Additional observations from a re-analysis of the deposited data

How the results depend on the processing

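Under all 10 alternatives, no member was called higher, and Hsp90ab1 and Hspd1 were called lower in each. The number of members that fell was 7 with all libraries, 9 by library totals alone and in DESeq2, 5 in limma on log2 RPKM, and 3 to 8 with 1 library left out. Leaving out 1 library gave 245 to 408 tested genes lower and 559 to 921 higher, 0 to 2 genes of the wider list lower and 0 to 1 higher, and a median of the members of -0.33 to -0.27. That median was -0.39 by library totals and -0.39 in limma, where the median of all tested genes was also lower, at -0.087 and -0.084. With the main settings the median of all tested genes was -0.02. The cause was not tested. The wider list had 5 lower genes by library totals and 5 in DESeq2. With the replicate number as a block, 13 members, 8 wider genes and 760 tested genes were lower and 1140 tested genes higher. The added members were Hspe1, Ahsa1, St13, Dnaja3, Cct3 and Cct7 (adjusted p = 0.0116, 0.0487, 0.0310, 0.0443, 0.00971 and 0.00558 in edgeR). The titles share a code by replicate number that the labels do not explain. Deviations of replicate 1 from the group means correlated at 0.0594 over genes. Resting on 2 libraries a group, this correlation cannot decide whether the samples are paired, so the block stands as an alternative. Signs turned only for members near 0 or with few counts: Hspa1b was -0.081 by library totals and -0.012 in limma, and Dnaja1 was -0.011 by library totals. With 1 library left out, Hspa1b ran from -2.996 to 3.12, Dnaja1 from -0.20 to 0.40, Dnajb6 from -0.025 to 0.21, Hspa14 from -0.21 to 0.12, Cct4 from -0.25 to 0.047, Hspa8 from -0.24 to 0.018 and Stub1 from -0.19 to 0.0027. With 1 library left in a group, that library is assumed to vary like the others. At these depths the lowest members, Hspa1a, Hspa1b, Bag3 and Hspb1, could show only large differences.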
